A study of Drosophila melanogaster with 4 samples.

Results

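MBD-R2 clusters on 3L, the left arm of chromosome 3 of Drosophila melanogaster, were taken as the regions of significant enrichment on that arm in ChIP replicate 1 that overlapped a region of ChIP replicate 2 by at least 1 bp. There were 752 such shared clusters among the 825 replicate 1 clusters on 3L, and among 4586 replicate 1 clusters in the whole series. Both ChIP libraries came from whole embryos of the wild-type strain Oregon-R, aged 14 to 16 h, fixed with 1.8% formaldehyde and precipitated with the antibody Q4167 against MBD-R2. An input library of chromatin that was not precipitated served as the background of each ChIP library, and no genotype, treatment or age was compared. The labels do not say whether both replicates came from separate embryo collections, so the spread between them may be technical. Whole embryos hold many tissues, and binding in few cells cannot be told apart from weak binding in many.

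MBD-R2 is a subunit of the NSL complex, in which the histone acetyltransferase MOF and the proteins NSL1, NSL2, NSL3, MCRS2 and WDS also take part. The complex is known for binding near the promoters of active genes, many of them housekeeping genes, where MOF acetylates lysine 16 of histone H4. The sequence of 3L starts near the telomere and ends towards the centromere, where the chromatin next to the centromere is gene-poor, rich in repeats and mostly packed as heterochromatin. All positions are on FlyBase release 5 and counted from 1. Genes are not named and no sequence is printed, because the only annotation at hand was on release 6, and it was not used. The score is the authors' value for each cluster, on a scale that neither labels nor file headers state. It served to rank and describe clusters within a list, and scores of both replicates stand side by side without a check that they share a scale.

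The shared clusters were 91.2% of the replicate 1 clusters on 3L (95% Wilson interval 89.0 to 92.9%, counting error only), and 90.4% of replicate 1 clusters were shared over all sequences. In the other direction 742 of 906 replicate 2 clusters on 3L were shared, or 81.9% (79.3 to 84.3%), against 84.7% over all sequences. Since overlap is the rule by which the clusters were chosen, these shares describe the choice. Replicate 2 held 81 more clusters on 3L than replicate 1, 109.8% of its number. The corresponding figure was 104.1% on 3R, 101.8% on 2L, 105.7% on 2R and 101.4% on X, and the difference between arms was not tested. The clusters that were not shared numbered 73 in replicate 1 and 164 in replicate 2. They were narrow and low, with medians of 1525 bp in width and 0.515 in score in replicate 1, and 1611 bp and 0.475 in replicate 2.

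The least overlap of a shared cluster was 30 bp, for the cluster from 1207353 to 1208997, which scored 0.577 in replicate 1 and whose partner scored 0.465 in replicate 2. It was the only shared cluster with under 500 bp of overlap, and the next least was 517 bp, at 8453453 to 8454773. Just outside the rule, a cluster from 10873720 to 10875022 lay 50 bp from the nearest replicate 2 cluster and scored 0.711. Another from 868503 to 870794 lay 75 bp away and scored 0.645. Of the 73 replicate 1 clusters left out, 11 lay within 500 bp of a replicate 2 cluster and 18 within 1 kb.

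Most shared clusters were the same region in both libraries. A single partner that overlapped no other cluster was found for 681 of the 752, or 90.6%, and for 87.5% of shared clusters over all sequences. Another 19 shared clusters overlapped 2 or more replicate 2 clusters, and 26 replicate 2 clusters spanned 2 or more shared clusters. Among the 681 uniquely matched clusters, starts differed by a median of 108 bp and ends by a median of 99 bp. Starts lay within 200 bp of each other in 69.0% and ends in 72.5%. Replicate 2 clusters tended to reach further on both sides, starting at a median of -40 bp and ending at 48 bp relative to replicate 1. Of these matched clusters, 458 (67.3%) were wider in replicate 2, by a median of 101 bp over all matched clusters.

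Shared clusters covered 10.3% of 3L in replicate 1 and 10.9% in replicate 2, or 10.6% ± 0.39 (SD, n = 2). Shared clusters were chosen by their overlap between replicates, which limits the SD over them. All clusters of each list, shared or not, covered 10.8% and 12.0% of the arm, or 11.4% ± 0.88 (SD, n = 2). Values over all clusters were added after those of shared clusters were seen. Shared clusters came to 2.53 Mb of the 24.5 Mb arm in replicate 1, and 88.2% of the bases under shared clusters of either replicate lay under both. The density was 30.6 shared clusters per Mb in replicate 1. By the same rule 2L held 29.6 shared clusters per Mb, 3R held 33.8, X held 34.9 and 2R held 40.6. The covered share on 2L was 10.6% ± 0.35, which differed from that of 3L by less than the SD of either arm. Replicate 2 covered more on each of these arms, so this SD is not the spread of a difference between arms. Within replicates 1 and 2, 2L had 10.40% and 10.90%, and 3L had 10.30% and 10.86%. The covered share on 3R was 12.1% ± 0.35. With all clusters of each list, the covered share was 11.2% ± 0.49 on 2L and 12.8% ± 0.61 on 3R. Arms were set side by side without a test: over 2 libraries an exact paired permutation test cannot give a two-sided p below 0.5, and clusters of 1 arm are not replicates.

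Along 3L the clusters came in alternating dense and sparse stretches. Over the 24 full windows of 1 Mb, the covered share ranged from 2.35% to 17.0% (means of both replicates), with a median of 10.8%. The densest was the window from 1000001 to 2000000, with 47 shared clusters covering 16.7% in replicate 1 and 17.3% in replicate 2. The first 1 Mb followed, with 46 clusters covering 15.7% and 16.5%. The window from 8000001 to 9000000 held the most shared clusters, 51, covering 15.5% and 16.3%. Counting all clusters of each list, these windows were covered to 17.7% and 18.9%, 17.1% and 19.0%, and 16.0% and 17.3% in the same order, above the arm's 10.8% and 12.0% in each replicate.

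Sparse windows also lay far from the ends. The window from 10000001 to 11000000 held 16 shared clusters, covering 4.24% in replicate 1 and 4.77% in replicate 2. The window from 2000001 to 3000000, directly after the densest, held 20 and was covered to 6.67% and 7.01%. The window from 14000001 to 15000000 held 18 and was covered to 6.55% and 6.75%. Shared clusters lie in the same places in both replicates by the rule that chose them, so windows were also compared over all clusters of each list. The covered shares of both replicates over the 24 full windows then had a Spearman correlation of 0.984, a description over windows of 1 arm, and replicate 2 covered more in 24 of the 25 windows.

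**Figure D1:**
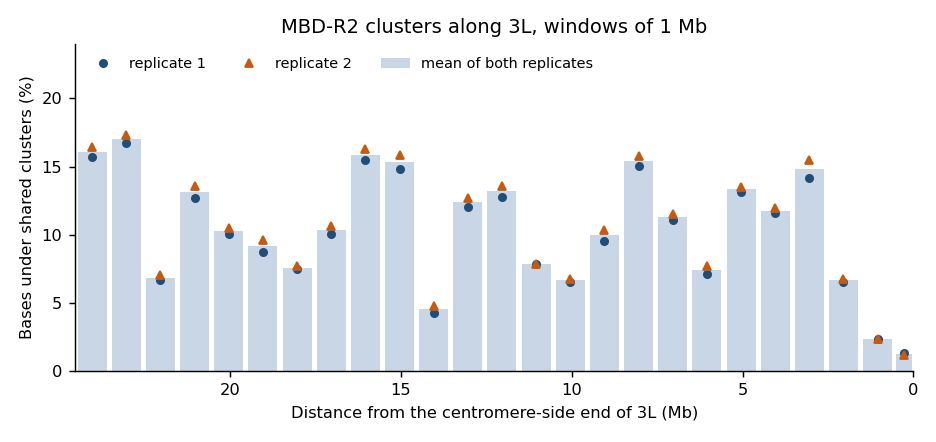
Percentage of bases under shared MBD-R2 clusters in each 1 Mb window of 3L, by distance from the centromere-side end in Mb. Bars are means of both replicates, circles are replicate 1 and triangles replicate 2. The window that ends 0.54 Mb from the centromere-side end has 2.35%, and the densest, near the telomere side, has 17.0%.

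The median score of a window had little relation to its density. The Spearman correlation over the 24 full windows between the number of shared clusters and their median replicate 1 score was 0.042, a description over windows of 1 library pair. The window from 6000001 to 7000000 had 21 clusters and a median score of 1.14 in replicate 1 and 1.29 in replicate 2. The window from 8000001 to 9000000, with 51 clusters, had medians of 0.890 and 0.982. The lowest medians outside the centromere-side end were in the window from 18000001 to 19000000, at 0.613 and 0.781 over 20 clusters.

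Cut into 3 equal lengths, the arm was covered least in the part towards the centromere. That part includes the last 2 Mb, where shared clusters covered 3.24% in replicate 1 and 3.37% in replicate 2. Its covered share without the last 2 Mb is not given. From 17000001 to 22000000 its windows of 1 Mb were covered to 11.3%, 7.39%, 13.3%, 11.8% and 14.8% (means of both replicates). The median over all full windows of 3L was 10.8%. The order of the parts therefore does not show a steady fall along the arm. The covered share was 11.5% ± 0.41 in the telomere-side part, 10.8% ± 0.44 in the middle and 9.54% ± 0.32 in the centromere-side part (SD, n = 2). Over all clusters of each list these values were 12.4% ± 0.95, 11.5% ± 0.84 and 10.3% ± 0.85. The order was the same in each replicate, while the telomere-side and middle parts differed by less than the SD over all clusters of the telomere-side part. These parts held 261, 261 and 230 shared clusters. Their median replicate 1 scores were 1.05, 0.940 and 0.966, and their median replicate 2 scores were 1.14, 1.03 and 0.993.

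The centromere-side end of 3L was the sparsest part of the arm. The last 2 Mb, from 22543558 to 24543557, held 24 shared clusters, covering 3.24% in replicate 1 and 3.37% in replicate 2, or 3.31% ± 0.093 (SD, n = 2). The rest of the arm was covered to 11.2% ± 0.42, so the end had 29.4% of the covered share of the rest. All clusters of each list covered 3.63% and 4.17% of the end, or 3.90% ± 0.39, and 12.1% ± 0.93 of the rest. The last 1 Mb held 4 shared clusters, covering 1.14% and 1.10%. All clusters of each list numbered 9 and 6 there, covering 1.91% and 1.45%. The first 2 Mb at the telomere side stood at the other extreme, with 93 shared clusters covering 16.5% ± 0.47. The telomere-side 2 Mb was also covered more than the rest on X (19.5% against 12.6%), 2L (13.9% against 10.3%) and 2R (21.9% against 13.2%). On 3R it was covered less, 8.12% against 12.4%. These differences were not tested.

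Clusters of the centromere-side end were also narrower and lower in score. The median score was 0.661 in replicate 1 and 0.704 in replicate 2, against 1.01 and 1.06 in the rest of the arm. The median width was 2297 bp and 2324 bp, against 2890 bp and 3060 bp. Over all clusters of each list, the median score was 0.640 and 0.613 in the end and 0.956 and 0.940 in the rest, and the median width was 2084 bp and 2188 bp against 2759 bp and 2699 bp. Each of these differences was larger than that between the replicates, and none was tested. Of the 24 clusters, 6 scored above the median of all shared clusters on 3L in replicate 1, and the highest reached 1.60. The median gap between neighbours there was 20.5 kb, against 8.20 kb in the rest. In replicate 1, 2L and 2R also had lower median scores in their centromere-side 2 Mb. These were 0.734 and 0.690, against 1.02 and 0.976 in their rest. X had 1.14 against 1.09, and 3R had 1.05 against 1.05. Median widths in this end were 2336 bp on 2L, 2330 bp on 2R, 3036 bp on X and 2844 bp on 3R. In their rest they were 2902 bp, 2949 bp, 3121 bp and 3045 bp.

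Within the last 2 Mb the decline had an inner edge. The clusters between 22708748 and 22874097 included 5 of the 6 higher ones, with replicate 1 scores from 1.22 to 1.60. The cluster from 22732836 to 22736364 had the highest, 1.60 in replicate 1 and 1.69 in replicate 2. Closer to the centromere than 22942454, where a gap of 144.9 kb began, 12 shared clusters were left. The cluster from 23330083 to 23333693 had scores of 1.10 and 1.14, and the others of the 12 scored at most 0.872 in replicate 1 and 0.889 in replicate 2. This edge was chosen after its values were seen.

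The 5 shared clusters nearest the centromere-side end were far apart. After the cluster at 23330083 came a gap of 373.6 kb. The next 2, from 23707273 to 23709656 and from 23730157 to 23732246, scored 0.670 and 0.653 in replicate 1 and 0.706 and 0.624 in replicate 2. A gap of 491.5 kb followed, and then a cluster from 24223782 to 24226204 with scores of 0.872 and 0.817. The last, from 24527123 to 24531604, was 4482 bp wide, had scores of 0.829 and 0.889, and ended 11.95 kb before the end of the sequence. All 5 were isolated, with no shared cluster within 20 kb on either side.

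At the telomere side the first shared cluster, from 50984 to 62778, was wide and high. It measured 11795 bp in replicate 1 and 12359 bp in replicate 2, and scored 1.93 and 1.87. The next 4 lay between 130648 and 177076 and scored from 0.407 to 0.931 in replicate 1 and from 0.480 to 1.12 in replicate 2. The cluster from 145723 to 148084 scored 0.761 and 0.679. Only the first of these 5 was isolated.

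**Figure D2:**
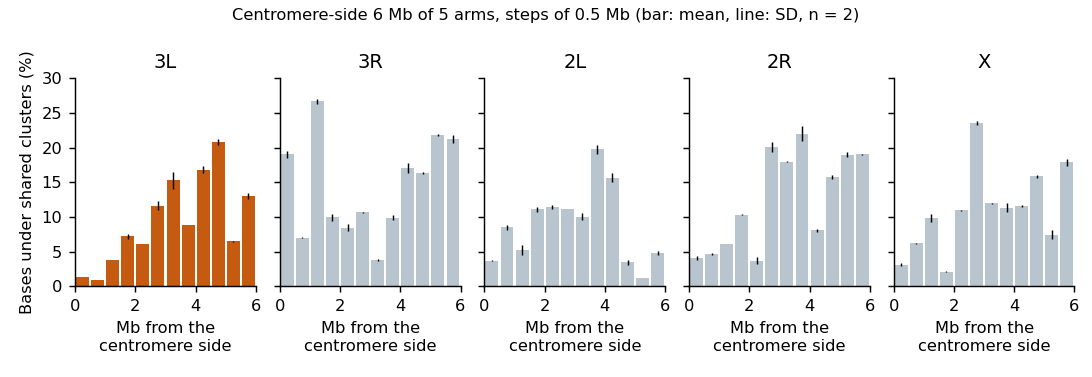
Percentage of bases under shared clusters in steps of 0.5 Mb over the centromere-side 6 Mb of 5 arms, by distance from the centromere side in Mb. Bars are means of both replicates and lines are SDs (n = 2). The first 2 steps of 3L stand at 1.34% and 0.899%, and those of 3R at 19.1% and 7.01%.

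Set beside the other arms, the centromere-side 2 Mb of 3L had the lowest covered share of the 5, a difference that was not tested. It was 5.33% ± 0.21 on X, 6.30% ± 0.13 on 2R and 7.14% ± 0.36 on 2L. Over all clusters of each list the 2 Mb of 3L had 3.90% ± 0.39, against 5.89% ± 0.034 on X, 6.71% ± 0.46 on 2R and 7.34% ± 0.45 on 2L. The order of these other arms moved with the length taken. In the last 1 Mb shared clusters covered 1.12% of 3L, 4.40% of 2R, 4.66% of X and 6.10% of 2L, and in the last 3 Mb 5.15% of 3L, 8.16% of 2R, 8.52% of 2L and 9.30% of X. The other arm of the same chromosome, 3R, went the other way, with 15.7% ± 0.36 in its centromere-side 2 Mb and 11.8% ± 0.35 in the rest. How far each arm sequence of release 5 reaches into heterochromatin differs between arms and was not measured here. The separate sequence 3LHet, which holds mapped heterochromatin of the left arm, spans 2.56 Mb and had 13 shared clusters, covering 1.26%. Its density of 5.09 shared clusters per Mb compares with 4 in the last 1 Mb of 3L. Over all clusters of replicates 1 and 2, the whole of 3LHet held 14 and 15, and the last 1 Mb of 3L held 9 and 6. The comparison therefore depends on the overlap rule. Scores of the 13 shared clusters of 3LHet ranged from 0.465 to 0.984, with a median of 0.744. The labels and file headers do not state how reads from repeated sequence were handled, and its part in these low values was not tested.

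Long stretches of 3L held no cluster in either list. There were 46 of at least 100 kb, summing to 7.53 Mb or 30.7% of the arm, and 11 of them reached 200 kb. They took up 60.6% of the last 2 Mb and 28.0% of the rest. By the same count they made up 39.1% of 2L, 32.0% of 3R, 36.4% of X and 23.8% of 2R. The longest, of 317.8 kb, ran from 18135298 to 18453074. The next were 284.6 kb from 4841752 to 5126371, 283.3 kb from 23737474 to 24020793, 264.1 kb from 1971541 to 2235687 and 247.7 kb from 9968601 to 10216295. Of these 5, 1 lay in the last 2 Mb, and the others were spread over the arm. The authors' combined list of both replicates had clusters on 9658 bp of the longest stretch and 51 bp of the one from 23737474. Of all 46 stretches, 1 was free of combined-list clusters, where any overlapping base counted. In some of the others only a few bases were covered, such as 8 bp from 19289169 to 19438191 and 9 bp from 24022700 to 24136980. The highest share of a stretch under combined-list clusters was 4.71%.

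Close spacing was common between these stretches. The 751 gaps between neighbouring shared clusters had a median of 8.32 kb in replicate 1, and 8.19 kb among the shared clusters of replicate 2. In replicate 1, 290 gaps were at most 5 kb and 88 at most 1 kb, while 59 were at least 100 kb. The median gap was 6.88 kb on 2L and 7.26 kb on 3R in replicate 1, and 7.00 kb and 7.38 kb in replicate 2. Over all clusters of each list the medians in replicates 1 and 2 were 7.86 kb and 6.66 kb on 3L, 6.40 kb and 6.09 kb on 2L, and 6.85 kb and 6.35 kb on 3R. The value on 3L was above both in each replicate, but over all clusters its replicates differed by more than it did from 3R.

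A dense run was defined as 5 or more shared clusters with at most 5 kb between neighbours. There were 11 such runs on 3L, holding 70 of the 752 shared clusters (9.31%, Wilson interval 7.43 to 11.6%), against 14.9% of shared clusters over all sequences. The interval treats clusters as independent, while runs hold them in groups of 5 or more, so it is too narrow. The difference from all sequences was not tested. In the shared clusters of replicate 2 the share on 3L was 10.5%. The shares in replicates 1 and 2 were 12.0% and 13.0% on 3R and 14.5% and 17.6% on 2L, and over all clusters of each list they were 9.94% and 13.2% on 3L, 12.8% and 17.2% on 3R and 16.8% and 19.1% on 2L. The share on 3L was below both in each replicate. Over all clusters, however, the replicates of 3L differed by more than 3L did from 3R in replicate 1. All replicate 2 clusters of 3L, without replicate 1, gave 120 clusters in runs, since clusters that were not shared also joined them. Another 380 shared clusters were in chains of 2 to 4, and 302 had no neighbour within 5 kb. None of the 11 runs lay in the last 2 Mb.

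The run with the most clusters held 10 within 47.3 kb, from 9415769 to 9463087. Clusters covered 73.5% of it in replicate 1 and 73.0% in replicate 2, with 9 clusters in the latter and 7 in the combined list. Its scores ran from 0.573 to 1.40 in replicate 1, and gaps inside it from 90 bp to 3203 bp. The second held 9 in 42.1 kb from 9685831 to 9727885, covered to 68.0% and 76.2%. Its highest score was 1.65 in replicate 1 and 1.49 in replicate 2.

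The third held 8 clusters in 48.3 kb from 12482447 to 12530707, covered to 65.1% and 65.3%. Its highest score was 1.12 in replicate 1 and 1.11 in replicate 2. Of the others, 3 held 6 clusters each. They ran from 1294811 to 1319375, from 12108241 to 12143630 and from 21499248 to 21534211, with highest replicate 1 scores of 1.43, 1.54 and 1.69. The remaining 5 held 5 clusters each. Of all 11, 8 lay between 8167597 and 12749716, in 3 windows of 1 Mb with at least 2 runs each, and these 8 held 53 of the 70 clusters in runs.

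**Figure D3:**
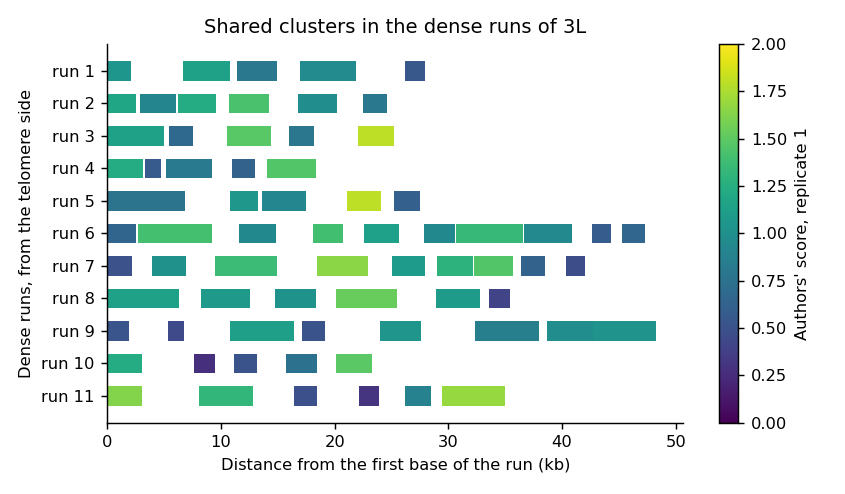
Shared clusters in the 11 dense runs of 3L, numbered from the telomere side, by distance from the first base of each run in kb. Each bar is 1 cluster, with its width to scale and its replicate 1 score in colour. Run 6 has 10 clusters in 47.3 kb and run 4 has 5 in 18.3 kb.

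Clusters in runs were wider and, at the median, higher in score than isolated ones. The 91 isolated clusters, with no shared neighbour within 20 kb on either side, made up 12.1% of shared clusters on 3L and 11.3% over all sequences. Their median score was 0.808 in replicate 1 and 0.862 in replicate 2. The 70 clusters in runs had 0.992 and 1.08, a difference of 0.200 ± 0.021 (SD, n = 2). Median widths were 3162 bp and 3593 bp in runs and 2352 bp and 2464 bp for isolated clusters. Replicate 2 values here are those of each cluster's best-scoring partner. A replicate 2 cluster that spanned several shared clusters thus counted once for each of them, which affects runs more. The groups overlapped widely: the upper quartile of replicate 1 score was 1.23 in runs and 1.21 for isolated clusters, and the lower quartiles were 0.659 and 0.551. With the 50% of clusters of highest score the replicate 1 difference was -0.0486, so it turned, with all clusters of 1 replicate it was 0.323 or 0.354, and in the combined list it was 0.169. The 591 remaining clusters had median scores of 1.01 and 1.08, close to those in runs. A unique partner was found for 96.7% of isolated clusters and 78.6% of those in runs.

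Widths of shared clusters ranged from 1306 bp to 17311 bp in replicate 1. The median was 2885 bp in replicate 1 and 3049 bp in replicate 2, or 2967 bp ± 116 (SD, n = 2). The 25th percentile was 2199 bp and the 75th was 3898 bp. The medians were 2846 bp and 3083 bp on 2L and 3034 bp and 3127 bp on 3R, so the values of 3L overlapped those of both arms. Over all clusters of each list the medians were 2746 bp and 2668 bp on 3L, 2730 bp and 2843 bp on 2L, and 2869 bp and 2890 bp on 3R. The 104 shared clusters wider than 5 kb were 13.8% of the total and made up 28.3% of its bases.

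The widest shared cluster on 3L spanned 17311 bp in replicate 1 and 17267 bp in replicate 2, from 16571824 to 16589134. It scored 1.69 and 1.62. The second, from 13985884 to 14000969, spanned 15086 bp and 15014 bp and scored 0.956 and 1.03, near the median of the arm. The others of the 5 widest were the telomere-side cluster at 50984, a 10859 bp cluster from 19899410 to 19910268 that scored 1.27 and 1.40, and a 10842 bp cluster from 3045501 to 3056342 that scored 1.00 and 1.15. Each of these 5 had a unique partner in replicate 2 and stood as a single cluster in the combined list.

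Score and width were tied, and no cut in width other than the edges of the classes below was examined. The Spearman correlation of width and replicate 1 score over the 752 shared clusters was 0.718, and 0.686 over the 742 of replicate 2; clusters share their library, and no p is given. The 116 shared clusters up to 2 kb wide had a median score of 0.471 in replicate 1, and the highest of them had 0.688. From 2001 to 3000 bp the median was 0.872 and the highest 1.78, over 286 clusters. From 3001 to 5000 bp it was 1.18 over 246 clusters, and from 5001 to 10000 bp 1.31 over 98. The medians of the partners in replicate 2 were 0.507, 0.937, 1.26 and 1.37 in the same order. Of all clusters on 3L up to 2 kb wide, shared or not, 1 of 183 in replicate 1 and 0 of 227 in replicate 2 scored above 0.8. Over all sequences 28 of 1072 in replicate 1 and 14 of 1108 in replicate 2 did. The next score of these clusters on 3L was 0.778 in replicate 1, and the highest in replicate 2 was 0.771. These lie just below 0.8, so the counts on 3L depend on that cut.

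**Figure D4:**
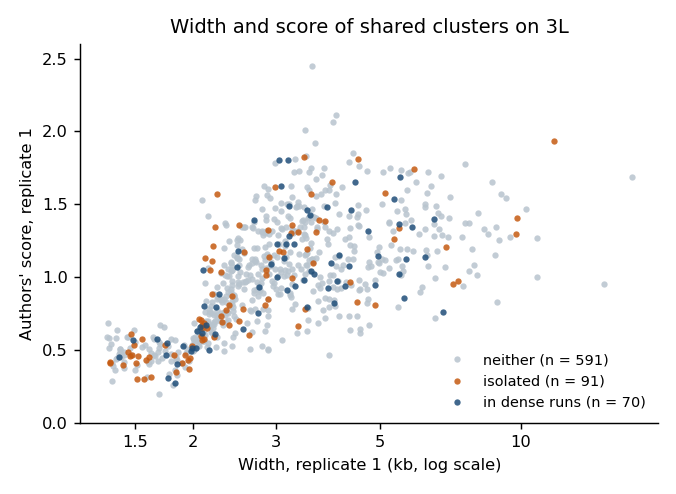
Replicate 1 score of each of the 752 shared clusters on 3L against its replicate 1 width in kb (log scale). Blue points are the 70 clusters in dense runs, orange points the 91 isolated ones and grey points the other 591. Clusters up to 2 kb wide stay at or below 0.688, and the highest score is 2.45.

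Scores of shared clusters ran from 0.197 to 2.45 in replicate 1, with a median of 0.994, and their best-scoring partners ran from 0.247 to 2.09, with a median of 1.07. The Spearman correlation of both scores was 0.926 over 752 clusters. Replicate 2 gave the higher score in 501 of them (66.6%), by a median of 0.0495 over all, and in the other 251 it did not. The 10th percentile of the difference was -0.136 and the 90th was 0.224. In the 25 windows of 1 Mb the median score was higher in replicate 2 in 22. Over all clusters on 3L, shared or not, the median score was 0.944 in replicate 1 and 0.923 in replicate 2.

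The shared cluster with the highest replicate 1 score lay from 18664509 to 18668095 and was 3587 bp wide. Its score was 2.45 in replicate 1 and 2.06 in replicate 2, in which 2 clusters of 3L ranked above it. Its nearest shared neighbour, 2.74 kb away, scored 0.624 and 0.832. The shared neighbour 5.57 kb away on the other side scored 0.949 and 1.03, near the medians of the arm. On that side a replicate 1 cluster that was not shared lay closer, from 18668588 to 18670523, with a score of 0.606. The next shared cluster on that side, 69.3 kb away, scored 1.48 and 1.42. The highest-scoring shared cluster lay 211.4 kb from the longest empty stretch. The 505.8 kb between 18106693 and 18612514 was the longest gap between shared clusters on 3L.

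The next highest, from 20292862 to 20296903, had scores of 2.12 and 2.09 and ranked first on 3L in replicate 2. The cluster from 17505088 to 17509056 scored 2.06 and 1.94. The cluster from 13504521 to 13507989 scored 2.01 and 2.08 and bordered a gap of 351.1 kb to the next shared cluster. The telomere-side cluster at 50984 followed at rank 5 among shared clusters. Others of the 10 highest were those from 12268772 to 12272412 (1.92 and 1.84), from 1348845 to 1353240 (1.85 and 1.98), from 14991267 to 14994740 (1.83 and 1.95), from 13956356 to 13959797 (1.82 and 1.91) and from 539442 to 543942 (1.81 and 1.78). Of these 10, 7 were also among the 10 highest by their replicate 2 score. All 10 had a unique partner, none lay in a dense run and none in the last 2 Mb. Apart from the telomere-side cluster they were between 3442 and 4501 bp wide.

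**Figure D5:**
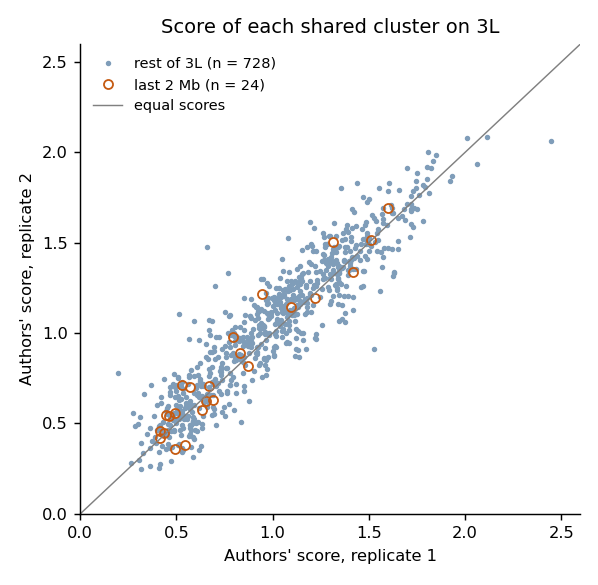
The authors' score of each shared cluster on 3L in replicate 1 against its best-scoring partner in replicate 2. Open orange circles are the 24 clusters of the last 2 Mb, small points the other 728, and the line marks equal scores. The 24 reach 1.60 in replicate 1, and the point farthest to the right is the cluster at 18664509, with 2.45 and 2.06.

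The combined list held 1305 clusters on 3L. Of these, 53.6% overlapped clusters of both replicates, against 54.9% over all sequences, and 29.7% overlapped neither, against 29.7% over all sequences. All 752 shared clusters overlapped a combined-list cluster. The combined list joined 101 of them with at least 1 other, in 47 clusters that held up to 3 each. The 651 shared clusters that stood alone in 1 combined-list cluster were wider there than in replicate 1 by a median of 358 bp, and their scores in both lists had a Spearman correlation of 0.966. Of the clusters that were not shared, it also held 70 of 73 from replicate 1 and 162 of 164 from replicate 2.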

How the data were processed

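Chromatin from 2 ChIP and 2 input libraries was sequenced. The aligner named in the submitters' processing notes is Bowtie 0.12.7. The deposited files used here are 3 lists of enriched regions on FlyBase release 5, per the file headers: 1 for each ChIP replicate and 1 combined list. Each region carries a deposited score, and neither labels nor file headers state its scale, the caller, the threshold or the way lists were combined. The inputs enter only through the authors' lists, and read depth is unknown, so no limit can be set for regions that were not detected.

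Clusters on 3L were matched by at least 1 bp of overlap, and a score in replicate 2 is that of the best-scoring partner. A cluster was put in a window by its midpoint, while covered shares count bases. Values are given per replicate, or as mean ± SD (n = 2). No test was run, since 2 libraries give an exact paired permutation test no two-sided p below 0.5. Regions were named by rule: the 10 highest and 5 widest shared clusters, the 5 runs with most clusters (6 with ties), the 5 longest empty stretches, and the 5 shared clusters nearest each end. Any other region was named with its values in view. The shared clusters, definitions and rules were chosen with earlier results of these data known. Alternatives were a stricter overlap, the highest-scoring clusters, the combined list, each list alone, other lengths of the end, other run gaps and means. Tables were made with pandas 2.3.3 and NumPy 2.4.6 under Python 3.11.15, correlations and intervals with SciPy 1.17.1 and figures with matplotlib 3.10.9, and the interval steps were tested on simulated data.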

Additional observations from a re-analysis of the deposited data

How the results depend on the processing

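In all, 46 alternative values were computed, and 12 moved by less than the SD between replicates or, for counts, by less than 1.5 times. An overlap of at least 50% of the shorter cluster kept 749 shared clusters and moved no result by more. Limiting each list to the 50% of clusters with the highest scores left, by construction, 393 shared clusters covering 6.71% of 3L and 1.26% of its last 2 Mb. Their median width was 3548 bp, median score 1.27 and median gap 19.2 kb, and 10 were in dense runs. The score in runs minus that of isolated clusters then turned to -0.0486, and that setting selects on the score itself. The combined list covered 16.0% of 3L and 5.87% of the last 2 Mb, with a median width of 2219 bp, a median score of 0.451, a median gap of 5.00 kb and 328 clusters in runs. With all clusters of 1 replicate in place of shared ones, covered share was 10.8 to 12.0%, and 3.63 to 4.17% in the last 2 Mb. Median width was 2668 to 2746 bp, median score 0.923 to 0.944, median gap 6.66 to 7.86 kb, clusters in runs 82 to 120, and score in runs minus isolated 0.323 to 0.354. The last 1 Mb was covered to 1.14% and the last 3 Mb to 5.03%. The mean width was 3363 bp. Runs held 15 clusters with gaps of at most 2 kb and 184 with at most 10 kb. The last 2 Mb was covered less than the rest of 3L under each list setting. The number of shared clusters needs both lists, so it has no value without a replicate. Where the construction of a setting does not show it, the cause was not tested. No paired analysis was possible because the input libraries have no list of their own and no test was run.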

Other observations

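The highest score on 3L in replicate 1, 2.81, belonged to a cluster that replicate 2 lacked. It lay in the sparse centromere-side end, from 24346071 to 24347463, and was 1393 bp wide. The nearest replicate 2 cluster was 119.9 kb away, and the nearest cluster of the combined list 39.7 kb away. The next highest score among the 73 replicate 1 clusters that were not shared was 0.778. Among all replicate 1 clusters up to 2 kb wide, 28 of 1072 scored above 0.8 over all sequences, and on 3L this cluster was the 1 of 183. Of the 73, 3 had no cluster of the combined list over them, and the other 2 lay within 1 kb of a replicate 2 cluster.

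Of the clusters found in replicate 2 alone, the widest on 3L lay beside the wide first cluster of the arm, from 65764 to 70642. It was 4879 bp wide, scored 0.689 and ended up in the combined list. Replicate 2 clusters of this kind were spread along the arm. They were 14 of the 60 replicate 2 clusters in the window from 21000001 to 22000000 and 12 of 46 in the window from 3000001 to 4000000. In the last 2 Mb they were 9 of 34, and on all of 3L 164 of 906. Over all sequences 84.7% of replicate 2 clusters were shared.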
